A study of Mus musculus with 10 samples.

Results

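The transcripts of 10 cytokine genes, Ifng, Il10, Il4, Il13, Il17a, Tnf, Lta, Csf2, Ebi3 and Areg, were followed through 10 RNA-seq libraries of sorted mouse spleen CD4+ T cells. The members were chosen by symbol, and all 10 symbols were found among the 48321 symbols of every count file. The cells came from C57BL/6 mice carrying a GFP reporter of Foxp3, either WT or Satb1 F/F:Thpok-cre (KO), in which Cre driven by Thpok deletes the loxP-flanked Satb1 gene in CD4-lineage T cells. SATB1 is a nuclear protein that organizes chromatin, and the comparisons ask how its loss acts on Tregs, marked by FoxP3 and CD25, and on conventional CD4+ T cells. GFP (taken as FoxP3) and CD25 defined 5 sorted groups of 2 libraries: WT FoxP3+CD25+, KO FoxP3+CD25+, WT FoxP3-CD25-, KO FoxP3-CD25- and KO FoxP3+CD25-. Whether the WT mice carried either Satb1 allele or Cre is not given in the sources used here. The labels give no treatment, and no WT FoxP3+CD25- library was analysed here, so that population had no WT counterpart. The study used adult mice of mixed sexes. The numbers in the titles were read as 2 mice per genotype, an inference from the titles, and p-values therefore measure only the spread between these libraries.

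Cytokines are the secreted signals by which T cells act on other cells. Helper T cells are classed by their leading cytokine: IFN-γ in Th1 cells, IL-4 and IL-13 in Th2 cells and IL-17A in Th17 cells, with TNF, lymphotoxin alpha and GM-CSF shared between classes. Tregs instead restrain responses, partly through IL-10, EBI3 (a subunit shared by IL-27 and IL-35) and, in tissue repair, amphiregulin. Most of these genes are transcribed at a low rate in unstimulated T cells and are induced after the T-cell receptor is engaged.

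Depth was modest, with 6094952 to 12410064 reads on genes per library, and 3 counts, taken as the floor, stood for 0.248 to 0.496 CPM, the count scaled to a common library size with TMM factors. Summed over the whole gene, Satb1 was at 379 and 478 CPM in WT and 598 and 534 CPM in KO FoxP3+CD25+ libraries, 818 and 881 CPM in WT and 841 and 682 CPM in KO FoxP3-CD25- libraries, and 1186 and 993 CPM in KO FoxP3+CD25- libraries. Such sums do not resolve the deleted part, so they check nothing about the genotype. Foxp3 was at 318 to 739 CPM in the FoxP3+ libraries and 18.0 to 38.9 CPM in the FoxP3- libraries, and Il2ra, which encodes CD25, at 627 to 760 CPM in the CD25+ libraries and 1.55 to 16.8 CPM in the others. All 7 T-cell markers were present in every group, and their summed level ran from 2989 to 3932 CPM. Both libraries of WT mouse 1 held Xist reads (14487 or more) and fewer than 20 reads over 4 Y-linked genes. The other 8 libraries held 20 or more Y-linked reads and at most 4 Xist reads, so this mouse differed in sex from the other 3. The members' contrasts with WT cells are also given without this mouse, an alternative chosen after seeing the data.

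Of the 10 members, 5 had at least 3 counts in every library (Ifng, Il10, Tnf, Lta and Ebi3). Areg fell below 3 counts in 3 libraries and Il4 in 2. Il13, Il17a and Csf2 stayed below 3 counts in all 10 libraries and did not pass the filter on low counts, which left 7 members among the 13796 genes tested. Csf2, which encodes GM-CSF, had no count at all. The exact 95% Poisson interval then reaches up to 0.227 to 0.271 CPM over the pair of libraries of a FoxP3+CD25+ or KO group. In WT FoxP3-CD25- cells it reaches up to 0.169 CPM. Il13 had 4 counts in total, 3 of them from KO FoxP3+CD25+ and 1 from KO FoxP3-CD25- cells. Il17a had 5 counts in total, all in FoxP3-CD25- cells, 2 from WT and 3 from KO. Differences between groups were not detectable for these 3 genes at this depth. Il4 ranged only from 0 to 12 counts per library.

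The genes lie on 5 chromosomes of GRCm38 (mm10), by the GENCODE M21 annotation. Ifng was on chromosome 10 (118441046 to 118445892, + strand), Areg on chromosome 5 (91139599 to 91148432, +), Ebi3 on chromosome 17 (55952640 to 55957022, +) and Il10 on chromosome 1 (131019845 to 131024974, +). Tnf (17, 35199381 to 35202007) and Lta (17, 35203165 to 35205351) are neighbours on the − strand, 1157 bases apart, and Il4 (11, 53602982 to 53618669) and Il13 (11, 53631324 to 53634702) are likewise neighbours on the − strand. Csf2 (11, 54247271 to 54249667, −) lies on the same chromosome, and Il17a (1, 20730905 to 20734496, +) on that of Il10. Ebi3 overlaps the antisense gene Gm16712, which had 284 counts over all libraries. Csf2 overlaps the antisense gene Gm12223 (1 count) and Lta the miRNA gene Mir6974 on its own strand (24 counts). Ifng overlaps Gm49751 on its own strand, a symbol that the count files lack. The strand setting of the counting is not given, so how reads from these overlaps were assigned is not known.

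Promoter windows are shown for the 4 members that were called in both the WT and the KO comparison of Tregs with conventional cells, so that the genes that were high in FoxP3+CD25+ cells (Ebi3, Areg and Lta) can be set beside the gene that was low there (Ifng). Each is the 250 bases before the RefSeq start (GRCm38.p6), 5′ to 3′ on the gene's strand, at chr10:118440796-118441045 for Ifng, chr17:55952373-55952622 for Ebi3, chr5:91139349-91139598 for Areg and chr17:35205352-35205601 for Lta. The other members' windows are not printed, and Il10 was not matched. Capitals mark any match, on either strand, to GGAAA (the core bound by NFAT), TGANTCA (AP-1), TATAAA (the TATA box) or GGTGTGA (the T-box core).
Ifng: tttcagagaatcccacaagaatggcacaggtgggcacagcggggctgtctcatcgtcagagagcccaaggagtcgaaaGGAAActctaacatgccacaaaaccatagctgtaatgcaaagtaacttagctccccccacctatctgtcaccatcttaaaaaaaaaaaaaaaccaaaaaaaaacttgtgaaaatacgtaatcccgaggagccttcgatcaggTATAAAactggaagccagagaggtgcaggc
Ebi3: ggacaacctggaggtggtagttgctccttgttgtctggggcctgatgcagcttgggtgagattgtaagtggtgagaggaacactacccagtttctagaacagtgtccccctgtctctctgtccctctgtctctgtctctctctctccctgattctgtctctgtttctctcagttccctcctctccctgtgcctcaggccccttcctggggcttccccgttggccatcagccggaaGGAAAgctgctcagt
Areg: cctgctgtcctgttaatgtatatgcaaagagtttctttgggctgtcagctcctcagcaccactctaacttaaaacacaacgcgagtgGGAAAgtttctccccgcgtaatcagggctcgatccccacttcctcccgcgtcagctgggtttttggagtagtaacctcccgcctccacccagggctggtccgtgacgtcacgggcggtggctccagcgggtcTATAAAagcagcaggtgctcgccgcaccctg
Lta: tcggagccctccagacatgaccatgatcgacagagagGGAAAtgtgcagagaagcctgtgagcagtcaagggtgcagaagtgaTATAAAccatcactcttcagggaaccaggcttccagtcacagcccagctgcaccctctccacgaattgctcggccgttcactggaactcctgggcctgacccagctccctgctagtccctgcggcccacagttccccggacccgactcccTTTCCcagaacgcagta
Ifng, Areg and Lta each held a TATAAA, 30, 31 and 167 bases before the start, and Ebi3 held none. Of 32851 promoter windows of this length, 12.4% held TATAAA. The GGAAA core was found once in Ifng, Ebi3 and Areg and at 2 places in Lta, but 55.6% of all windows held it. TGANTCA (6.75% of windows) and GGTGTGA (3.33%) were in none of the 4. No match overlapped another.

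Ifng encodes IFN-γ, the cytokine that activates macrophages and defines Th1 cells. It was at 23.4 and 10.6 CPM in WT FoxP3-CD25- libraries and 27.1 and 26.3 CPM in KO FoxP3-CD25- libraries. FoxP3+CD25+ libraries held 8.06 and 7.09 CPM in WT and 4.73 and 5.37 CPM in KO. The KO FoxP3+CD25- libraries held 0.808 and 0.547 CPM, which is 5 counts in each. Thus every FoxP3-CD25- library was above every FoxP3+CD25+ library, and both KO FoxP3+CD25- libraries lay under all the others. By group mean the order was KO FoxP3-CD25- (26.7 ± 0.549 CPM, SD, n = 2), WT FoxP3-CD25- (17.0 ± 9.0), WT FoxP3+CD25+ (7.57 ± 0.689), KO FoxP3+CD25+ (5.05 ± 0.454) and KO FoxP3+CD25- (0.678 ± 0.185). KO and WT FoxP3-CD25- cells, and WT and KO FoxP3+CD25+ cells, were neighbours in this order that the test given below did not separate.

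The members with suppressor or repair roles ran the other way. Il10 encodes IL-10, which damps antigen-presenting cells. It was at 23.3 and 7.80 CPM in WT and 13.4 and 7.34 CPM in KO FoxP3+CD25+ libraries, against 4.14 and 2.48 CPM in WT and 2.48 and 4.87 CPM in KO FoxP3-CD25- libraries, and 2.26 and 0.875 CPM in KO FoxP3+CD25- libraries. The FoxP3+CD25+ libraries were all above the other 6, but WT mouse 1 was far above WT mouse 2. Ebi3 was at 17.9 and 10.04 CPM in WT and 15.3 and 8.12 CPM in KO FoxP3+CD25+ libraries. It was at 1.33 and 0.516 CPM in WT FoxP3-CD25- libraries, 1.98 and 2.37 CPM in KO FoxP3-CD25- libraries and 1.29 and 0.766 CPM in KO FoxP3+CD25- libraries. Again the 4 FoxP3+CD25+ libraries stood above all others. Areg, which encodes amphiregulin, an EGF-receptor ligand, was likewise highest in the FoxP3+CD25+ libraries, with 8.57 and 3.07 CPM in WT and 4.88 and 3.14 CPM in KO. In the other 6 libraries Areg ran from 0.132 to 0.497 CPM, or 1 to 6 counts. Il12a, which encodes the partner of EBI3 in IL-35, had no count in any library, and Il27, which encodes the partner in IL-27, had at most 2.

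The TNF family members were the most evenly spread. Lta encodes lymphotoxin alpha, needed for lymphoid tissue structure. It was at 31.5 and 50.1 CPM in WT and 51.3 and 67.7 CPM in KO FoxP3+CD25+ libraries, and all 6 other libraries lay between 16.7 and 21.3 CPM. Tnf encodes the inflammatory cytokine TNF. It was at 28.2 and 24.8 CPM in WT and 22.3 and 30.0 CPM in KO FoxP3+CD25+ libraries, 19.7 and 13.0 CPM in WT and 21.0 and 20.8 CPM in KO FoxP3-CD25- libraries, and 9.05 and 10.8 CPM in KO FoxP3+CD25- libraries, the lowest pair. Il4, the Th2 cytokine, was at 1.49 and 1.58 CPM in KO FoxP3-CD25- libraries and at or below 0.917 CPM elsewhere.

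**Figure D1:**
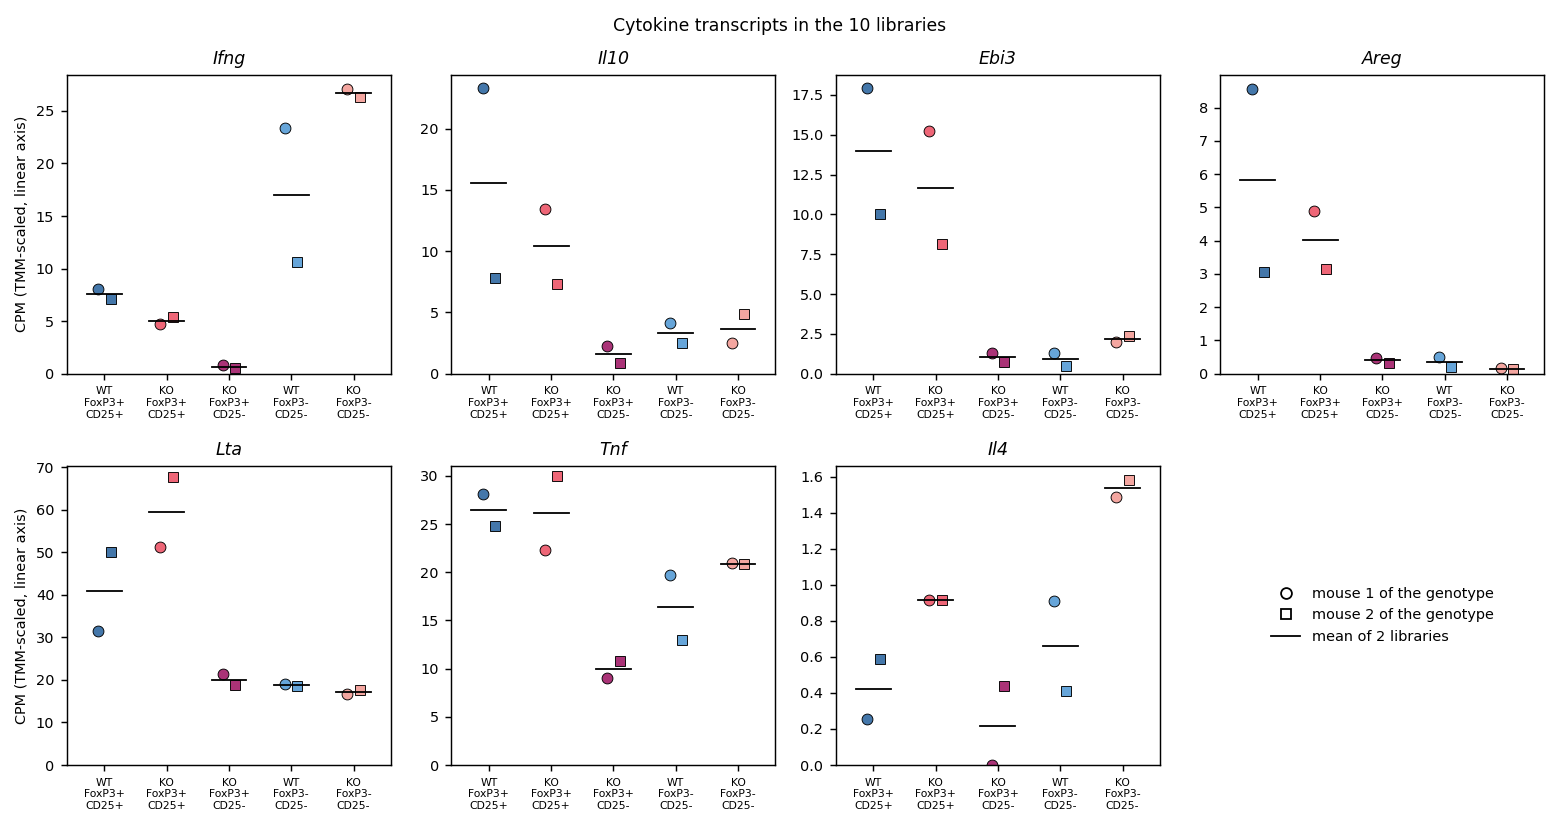
CPM (linear axes) of the 7 members that passed the filter, in each of the 10 libraries; circles are mouse 1 and squares mouse 2 of a genotype, and black lines are means of 2 libraries. Il10, Ebi3, Areg and Lta were highest in the 4 FoxP3+CD25+ libraries, whereas Ifng was highest in the FoxP3-CD25- libraries and lowest, at 0.808 and 0.547 CPM, in KO FoxP3+CD25- cells.

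Compared per kb of annotated exon, Lta led in FoxP3+CD25+ cells (29.5 CPM per kb in WT and 43.0 in KO), followed by Tnf (16.2 and 15.9), Ebi3 (12.1 and 10.1) and Il10 (11.9 and 7.93). In FoxP3-CD25- cells, Ifng reached 13.1 CPM per kb in WT, beside Lta at 13.7, and 20.6 in KO, where it led. In KO FoxP3+CD25- cells, Lta (14.5 CPM per kb) and Tnf (6.07) were followed at a distance by Il10 (1.20), Ebi3 (0.892) and Ifng (0.523).

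The first question was which cytokine transcripts separate Tregs from conventional cells. In WT cells, Il10, Ebi3, Areg and Lta were higher and Ifng lower in FoxP3+CD25+ than in FoxP3-CD25- cells. The two-sided quasi-likelihood test of edgeR, with Benjamini-Hochberg adjustment over the 13796 genes, called 5 of the 7 tested members at FDR 0.05 (4 higher and 1 lower). Of all genes, 10.9% were called, 7.15% higher and 3.75% lower. Areg passed the filter through its FoxP3+CD25+ libraries, and Il4 through its KO FoxP3-CD25- libraries, so their place in such counts is not independent of the filter. Areg and Ebi3 changed most, by log2 fold changes of 3.92 (SE 0.60, FDR = 0.000947) and 3.84 (SE 0.49, FDR = 0.000543), followed by Il10 at 2.19 (SE 0.54, FDR = 0.0233) and Lta at 1.11 (SE 0.21, FDR = 0.00640). Ifng fell by 1.18 on the log2 scale (SE 0.33, FDR = 0.0401). Tnf had a log2 fold change of 0.68 (FDR = 0.0740), and with the mouse as a block it was called (0.71, FDR = 0.00849). Il4 differed by −0.66 (95% confidence interval −2.41 to 1.09).

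These WT calls rested unequally on single libraries. Without both libraries of WT mouse 1, Lta (1.43), Ebi3 (4.25) and Areg (3.80) were still called, whereas Il10 (1.66, FDR = 0.248) and Ifng (−0.58, FDR = 0.365) were not. Tnf (0.94, FDR = 0.0954) and Il4 (0.51, FDR = 0.891) were not called either, and the Il4 value turned in sign. Il10 also lost its call without the WT mouse 1 FoxP3+CD25+ library (1.20, FDR = 0.242), the WT mouse 1 FoxP3-CD25- library (2.64, FDR = 0.0844) or the WT mouse 2 FoxP3-CD25- library (1.89, FDR = 0.171). Ifng lost its call without the WT mouse 1 FoxP3+CD25+ library (−1.28, FDR = 0.132), the WT mouse 2 FoxP3+CD25+ library (−1.10, FDR = 0.123) or the WT mouse 1 FoxP3-CD25- library (−0.48, FDR = 0.372), and in a fit of the compared libraries alone (−1.15, FDR = 0.138). Lta lost its call without the WT mouse 2 FoxP3-CD25- library (1.09, FDR = 0.0593).

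The same comparison was made in KO cells. Areg (log2 fold change 4.62, SE 0.91, FDR = 0.00858), Ebi3 (2.39, SE 0.49, FDR = 0.0147) and Lta (1.80, SE 0.22, FDR = 0.000870) were higher in FoxP3+CD25+ than in FoxP3-CD25- cells, and Ifng fell by 2.40 on the log2 scale (SE 0.35, FDR = 0.00236). Thus 3 of 7 tested members were higher and 1 lower, where 6.34% of all genes were called, 3.52% higher and 2.81% lower. The Areg call stood against only 2 counts in the FoxP3-CD25- pair, a ratio of 26.9 with a 95% counting interval of 7.11 to 228. Il10 had a log2 fold change of 1.44 (FDR = 0.268), and 1.39 with the mouse as a block, where it was called (FDR = 0.0443). Tnf differed by 0.33 (95% interval −0.16 to 0.82) and Il4 by −0.74 (−2.15 to 0.67). Ebi3 and Areg lost their calls without the KO mouse 1 FoxP3+CD25+ library (1.88, FDR = 0.106, and 4.29, FDR = 0.0548), the KO mouse 1 FoxP3-CD25- library (2.28, FDR = 0.0972, and 4.77, FDR = 0.0930) or the KO mouse 2 FoxP3-CD25- library (2.53, FDR = 0.0950, and 4.46, FDR = 0.133).

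Libraries of 2 groups did not overlap for 47% of all tested genes in the WT and 46.5% in the KO comparison, so separation alone was common. Within single mice the direction did not vary for the 6 members other than Il4. The ratios reuse the libraries tested above, and the share of all genes with 1 direction in 4 of 4 mice was not computed. Ifng was lower in the FoxP3+CD25+ library in 4 of 4 mice, with log2 ratios of −1.53 and −0.58 in the WT mice and −2.52 and −2.29 in the KO mice. Areg was higher in 4 of 4 mice, by log2 ratios of 3.90 to 4.88, as was Ebi3, by 1.78 to 4.28. Il10 was higher by 0.59 to 2.49, and the smallest of these came from KO mouse 2. Lta was higher by 0.72 to 1.95, and Tnf by 0.08 to 0.93.

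**Figure D2:**
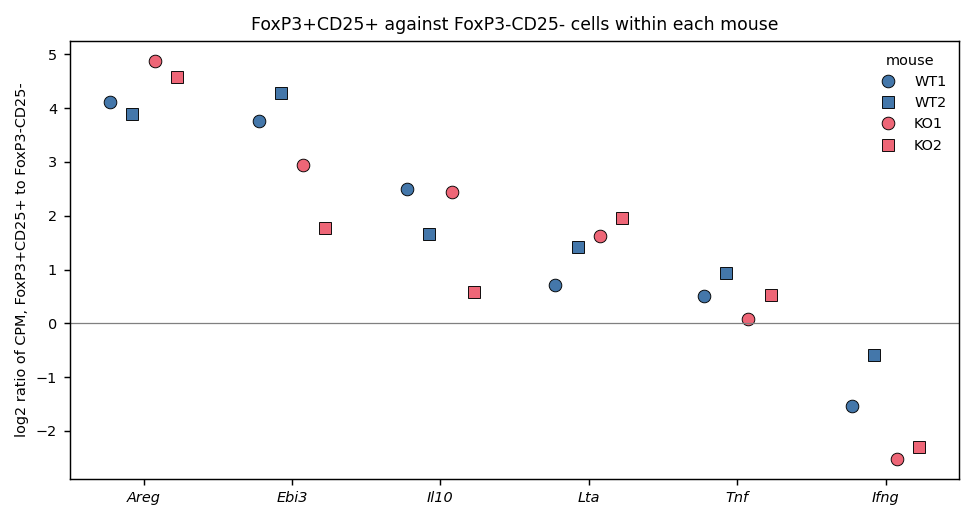
Log2 ratio of CPM in the FoxP3+CD25+ library to that in the FoxP3-CD25- library of the same mouse (blue WT, red KO; circles mouse 1, squares mouse 2). Areg, Ebi3, Il10, Lta and Tnf were above 0 in all 4 mice and Ifng was below 0 in all 4.

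Markers of other cell types were read beside these contrasts. The summed level of the 4 NK cell markers was 0.128 to 1.37 CPM in the FoxP3+CD25+ libraries, 0.647 to 1.20 CPM in the KO FoxP3+CD25- libraries and 2.73 to 8.17 CPM in the FoxP3-CD25- libraries. NK cells also transcribe Ifng. Of these markers, Klrb1c and Klrk1 were highest in the FoxP3-CD25- libraries (12 to 30 and 9 to 32 counts, against at most 6 of each elsewhere), whereas Ncr1 and Klra8 were at 0 in the KO FoxP3-CD25- libraries and had at most 3 counts in any library. The part of NK cells in the Ifng values was not tested. The list for ILC2, basophils and mast cells, which can transcribe Areg, Il4 and Il13, summed to 17.7 to 52.1 CPM in the FoxP3+CD25+ libraries and 1.16 to 4.20 CPM in the others, but Il1rl1, which Tregs express as well, supplied 17.5 to 50.9 CPM of the former, and Mcpt8 and Fcer1a were at 0 in all libraries. B-cell markers summed to 16.2 to 20.3 CPM in FoxP3+CD25+ libraries and 1.65 to 6.62 CPM elsewhere. In the FoxP3+CD25+ libraries Cd79b supplied most of this (14.4 to 19.1 CPM), and its part in the differences was not tested. The 5 markers of macrophages and monocytes summed to 13.9 to 18.2 CPM in FoxP3+CD25+ and 17.5 to 21.3 CPM in the other libraries, the 2 CD8 markers to 9.38 to 16.6 CPM, and the 3 neutrophil markers to 0.458 CPM at most. The activated or memory T-cell list, which held Cd44 and Cxcr3, summed to 798 to 1003 CPM in FoxP3+CD25+ libraries, 546 to 914 CPM in FoxP3-CD25- libraries and 370 to 646 CPM in KO FoxP3+CD25- libraries. Cd69 supplied 523 and 272 CPM of the last, against 236 to 483 CPM elsewhere. Cd44 (17.9 and 16.1 CPM), Cxcr3 (12.6 and 9.85) and Icos (72.1 and 57.3) were lowest in KO FoxP3+CD25- cells. Elsewhere they ran from 80.1 to 212, 25.3 to 121 and 92.0 to 281 CPM. Tnfrsf4 and Ccl5 overlapped. Naive T-cell markers summed to 3613 to 4063 CPM in KO FoxP3+CD25- libraries. They ran from 2131 to 2501 CPM in FoxP3+CD25+ and 3881 to 4359 CPM in FoxP3-CD25- libraries. The part of both lists in the differences was not tested. In bulk libraries, fewer cytokine-transcribing cells and less transcript per cell cannot be told apart.

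The second question was whether the loss of SATB1 altered cytokine transcripts within a sorted population. In FoxP3+CD25+ cells none of the 7 tested members was called between KO and WT by edgeR, against 0.00725% of all genes (1 gene), and 1 had an unadjusted p under 0.05. That was Lta, with a log2 fold change of 0.54 (95% interval 0.09 to 1.0, FDR = 1.0). Il10 differed by −0.59 (−1.67 to 0.49), Ebi3 by −0.27 (−1.06 to 0.52), Areg by −0.54 (−1.45 to 0.38) and Ifng by −0.58 (−1.45 to 0.30). Tnf differed by −0.01 (−0.49 to 0.46), the narrowest of these intervals around 0, and Il4 by 1.07 (−0.73 to 2.86). The likelihood ratio test and DESeq2 called none of them either. The direction of several values rested on WT mouse 1: without it, Il10 (0.39), Ebi3 (0.20), Areg (0.37) and Tnf (0.08) turned to positive values, Lta was at 0.25, Ifng at −0.48 and Il4 at 0.62, and none was called.

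In FoxP3-CD25- cells likewise none of the 7 was called by edgeR, by the likelihood ratio test or by DESeq2, against 0.145% of all genes in edgeR (0.116% higher and 0.029% lower), and none had an unadjusted p under 0.05. Ifng came nearest, with a log2 fold change of 0.64 (95% interval −0.004 to 1.28, FDR = 0.625). Il4 differed by 1.15 (−0.21 to 2.51), Ebi3 by 1.18 (−0.36 to 2.73), Tnf by 0.34 (−0.15 to 0.84), Il10 by 0.16 (−1.33 to 1.66), Lta by −0.14 (−0.65 to 0.37) and Areg by −1.24 (−4.35 to 1.88). Without WT mouse 1, the Ifng value was 1.34 (FDR = 0.0691), against the single WT library at 10.6 CPM, and none of the 7 was called. Il4 was then at 1.87, Ebi3 at 2.07, Tnf at 0.70, Il10 at 0.62, Lta at −0.11 and Areg at −0.44. With all libraries, most of these intervals leave room for changes of more than 1 on the log2 scale.

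The difference between the FoxP3+CD25+ and FoxP3-CD25- contrasts in KO and in WT was tested as an interaction. None of the 7 members was called, and 0% of all genes were (0 genes). With the mouse as a block, which pairs the 2 populations within each mouse, 149 of the 13796 genes were called, but no member. The likelihood ratio test and DESeq2 also called no member. Ifng (−1.21, 95% interval −2.29 to −0.13, FDR = 0.951) and Lta (0.69, 0.004 to 1.37, FDR = 1.0) had unadjusted p under 0.05. Ebi3 differed by −1.45 (−3.18 to 0.29). Without WT mouse 1, Ifng was at −1.82 (FDR = 0.509), Lta at 0.37 and Ebi3 at −1.87, and no member was called.

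The KO FoxP3+CD25- cells, which hold FoxP3 without CD25, were then compared with each other population. Against KO FoxP3+CD25+ cells, 6 of the 7 tested members were lower, all but Il4, where 7.02% of all genes were called, 4.76% lower and 2.25% higher. Ebi3 fell by 3.54 on the log2 scale (SE 0.56, FDR = 0.00317), Areg by 3.29 (SE 0.72, FDR = 0.0139), Ifng by 2.93 (SE 0.64, FDR = 0.0175), Il10 by 2.81 (SE 0.72, FDR = 0.0400), Lta by 1.57 (SE 0.22, FDR = 0.00149) and Tnf by 1.39 (SE 0.24, FDR = 0.00508). Il4 differed by −1.76 (95% interval −3.79 to 0.27). In both KO mice, these 6 transcripts were lower in the FoxP3+CD25- library. This follows from the libraries of the 2 groups not overlapping, which held for 49.3% of all tested genes.

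The number of these calls fell to 2 or 3 when any of the 4 compared libraries was left out. Lta kept its call in each of these fits, whereas Ifng and Il10 lost theirs in all 4. Without the KO mouse 1 FoxP3+CD25+ library, Ifng was at −3.01 (FDR = 0.0541), Il10 at −2.32 (FDR = 0.217) and Areg at −2.96 (FDR = 0.0958). Without the KO mouse 1 FoxP3+CD25- library, Ifng was at −3.18 (FDR = 0.0640), Il10 at −3.53 (FDR = 0.0824) and Areg at −3.54 (FDR = 0.0650). Without the KO mouse 2 FoxP3+CD25+ library, Ifng was at −2.83 (FDR = 0.0845), Il10 at −3.19 (FDR = 0.0512) and Tnf at −1.15 (FDR = 0.0523). Without the KO mouse 2 FoxP3+CD25- library, Ifng was at −2.63 (FDR = 0.154), Il10 at −2.17 (FDR = 0.273), Ebi3 at −3.15 (FDR = 0.0538) and Areg at −2.99 (FDR = 0.158).

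Against WT FoxP3+CD25+ cells, the same 6 members were lower, where 11.2% of all genes were called, 7.34% lower and 3.88% higher. Both comparisons share the KO FoxP3+CD25- libraries. Areg fell by 3.82 (FDR = 0.00216), Ebi3 by 3.80 (FDR = 0.00101), Ifng by 3.50 (FDR = 0.00281), Il10 by 3.40 (FDR = 0.00772), Tnf by 1.40 (FDR = 0.00306) and Lta by 1.03 (FDR = 0.0115), all on the log2 scale. Without both libraries of WT mouse 1, Ifng (−3.41), Ebi3 (−3.33), Areg (−2.92), Lta (−1.33) and Tnf (−1.30) were still called. Il10 lost its call without them (−2.42, FDR = 0.0601) or without the KO mouse 2 FoxP3+CD25- library (−2.76, FDR = 0.0947). Lta lost its call without the latter (−0.94, FDR = 0.102) or without the WT mouse 2 FoxP3+CD25+ library (−0.66, FDR = 0.0543).

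Against FoxP3-CD25- cells fewer members were called. Compared with KO FoxP3-CD25- cells, Ifng was the only member called in the fit without a mouse block. In that fit 1.67% of all genes were called, 1.35% lower and 0.319% higher. Ifng fell by 5.32 on the log2 scale (SE 0.50, 95% interval −6.42 to −4.22, FDR = 0.000605), and by p-value it ranked 11 among the 13796 genes. The counts behind it were 10 in the FoxP3+CD25- pair and 364 in the FoxP3-CD25- pair. Within KO mouse 1 and KO mouse 2, the log2 ratios were −5.07 and −5.59. Tnf differed by −1.06 (SE 0.24, FDR = 0.0630), and with the mouse as a block it was called as well (−1.07, FDR = 0.00624). Il4 differed by −2.50 (95% interval −4.32 to −0.68, FDR = 0.225). Lta (0.22, −0.30 to 0.74), Il10 (−1.37, −3.25 to 0.51), Ebi3 (−1.15, −2.82 to 0.52) and Areg (1.33, −1.94 to 4.59) were not called.

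Compared with WT FoxP3-CD25- cells, where 0.768% of all genes were called (0.413% lower and 0.355% higher), Ifng was again the only called member, at −4.68 on the log2 scale (FDR = 0.00296). Without the KO mouse 2 FoxP3+CD25- library its value was −4.38, just short of the threshold (FDR = 0.0505), and without WT mouse 1 it was −3.98 (FDR = 0.00768). Tnf differed by −0.71 (95% interval −1.24 to −0.19, FDR = 0.328), Lta by 0.08 (−0.42 to 0.58), Ebi3 by 0.03 (−1.78 to 1.85), Areg by 0.09 (−2.31 to 2.49), Il10 by −1.21 (−3.00 to 0.59) and Il4 by −1.35 (−3.35 to 0.65). Without WT mouse 1 these values were −0.36 for Tnf, 0.10 for Lta, 0.91 for Ebi3, 0.88 for Areg, −0.76 for Il10 and −0.63 for Il4, none of them called.

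**Figure D3:**
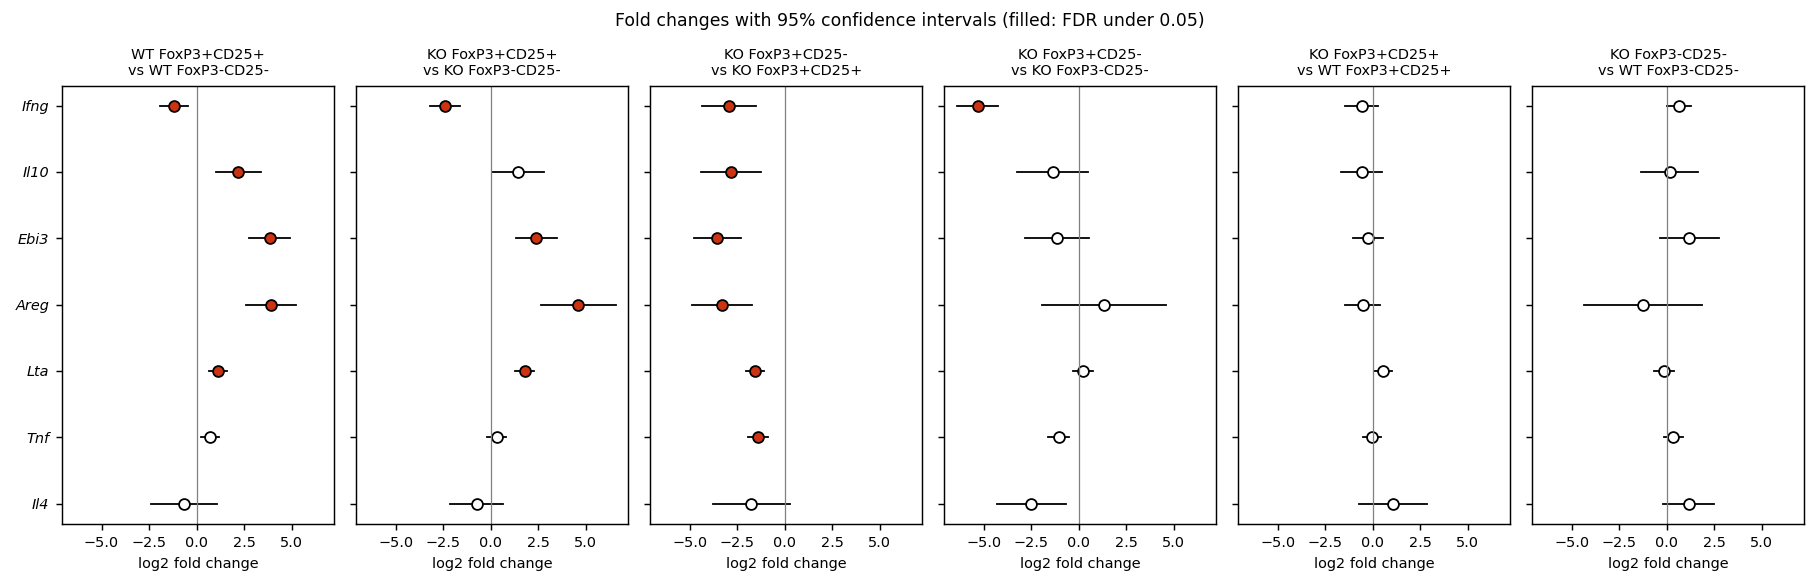
Log2 fold changes of the 7 tested members in 6 comparisons, with 95% confidence intervals from edgeR's quasi-likelihood fit; filled points have FDR under 0.05. No member was called between KO and WT in either population (right), whereas 6 were lower in KO FoxP3+CD25- than in KO FoxP3+CD25+ cells and Ifng was the only one called against KO FoxP3-CD25- cells.

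Likeness of pattern was described by Pearson's r of log2 CPM (prior count 2) over the 10 libraries, which share mice and sorted populations, so no p-value is given. Ifng ran most closely with Nkg7 (r = 0.98), a cytotoxic granule protein, Tbx21 (0.97), which encodes the Th1 regulator T-bet, and Cxcr3 (0.96), a chemokine receptor of Th1 cells. Il10 ran with Nfil3 (0.97), Pou2f2 (0.96) and A930005N03Rik (0.96), Ebi3 with Rnf19b, Dusp4 and Mfsd2a (each 0.99), Areg with Pim1, Slc35d1 and Rel (each 0.98), Lta with Arhgap24 (0.98), Gm16008 (0.98) and Cd96 (0.97), and Tnf with Gm42620 (0.97), Gcnt1 (0.97) and Ccdc50 (0.96). For Il4 the values were lower (Hdhd2 0.92, Cep44 0.92 and Lgals1 0.92), and only 1 of these 3 genes was kept with a prior count of 0.5. Among the members themselves, Il10, Ebi3 and Areg had r of 0.85 to 0.92 with each other, and Ifng had r of −0.16 with Lta and 0.71 with Il4.

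The other cytokines and ligands of T cells were taken as a list of 30 genes, of which 17 passed the filter. In the WT comparison of FoxP3+CD25+ with FoxP3-CD25- cells, 4 of the 17 were higher and 5 lower, with a median log2 fold change of 0.06 beside −0.02 for all genes, of which 7.15% were called higher and 3.75% lower. In the KO comparison, 2 were higher and 5 lower (median −0.11), beside 3.52% higher and 2.81% lower of all genes (median −0.00). Il21, the B-cell helper cytokine of follicular helper T cells, was at 28.2 and 18.9 CPM in WT and 23.3 and 35.8 CPM in KO FoxP3-CD25- libraries, against 0.354 to 1.92 CPM in FoxP3+CD25+ and 0.808 and 0.875 CPM in KO FoxP3+CD25- libraries. Like Ifng, Il21 was lower in KO FoxP3+CD25- than in KO FoxP3-CD25- cells (log2 fold change −5.11, FDR = 0.000605), but its levels in the FoxP3+CD25- and FoxP3+CD25+ libraries overlapped. Il21 passed the filter through its FoxP3-CD25- libraries, so its place in the counts for this list is not independent of the filter. Tnfsf11, which encodes RANKL, was at 11.96 and 5.69 CPM in KO FoxP3+CD25- libraries and at 17.9 to 56.4 CPM in the other 8. Compared with KO FoxP3-CD25- cells, 4 of the 17 were lower in KO FoxP3+CD25- cells and none higher, Tnfsf11 (−2.48, FDR = 0.00245) among them, and the median was −0.53 beside 0.01 for all genes, of which 1.35% were lower and 0.319% higher. Csf1 and Tnfsf10 were higher in FoxP3+CD25+ cells of both genotypes (Csf1 by 2.37 in WT and 1.67 in KO, and Tnfsf10 by 1.13 and 1.72). Cd40lg, the helper ligand of conventional T cells, was lower there by −2.10 in WT and −1.58 in KO. Il2, the T-cell growth factor, had no count in WT FoxP3+CD25+ libraries and 3 and 6 counts (0.458 and 0.786 CPM) in KO FoxP3+CD25+ libraries. It was at 1.44 to 5.95 CPM in FoxP3-CD25- libraries and 2.101 and 2.52 CPM in KO FoxP3+CD25- libraries. None of the 17 tested genes of this list, Il2 included, was called between KO and WT FoxP3+CD25+ cells.

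The receptors of the member cytokines were taken as a list of 18 genes, of which 14 were tested. In FoxP3+CD25+ against FoxP3-CD25- cells, 3 were higher and 1 lower in WT (median log2 fold change 0.08) and 4 were higher and none lower in KO (median 0.31). Of all genes, 7.15% were higher and 3.75% lower in WT (median −0.02) and 3.52% and 2.81% in KO (median −0.00). Between KO and WT FoxP3-CD25- cells, 1 of the 14 receptors was called higher and none lower, beside 0.116% and 0.029% of all genes. In KO FoxP3+CD25- against WT FoxP3-CD25- cells, 2 were higher and none lower, beside 0.355% and 0.413%. None was called between KO and WT FoxP3+CD25+ cells. Tnfrsf1b, which encodes the TNF receptor TNFR2, was at 304 to 479 CPM in the FoxP3+CD25+ libraries and 81.3 to 125 CPM in the other 6, and it fell by 1.98 on the log2 scale in KO FoxP3+CD25- compared with KO FoxP3+CD25+ cells (FDR = 0.000189). Tnfrsf1a, the other TNF receptor, was 0.61 higher in that comparison (FDR = 0.0171). Il10ra, the ligand-binding chain of the IL-10 receptor, was at 58.0 and 53.9 CPM in WT FoxP3-CD25- libraries and at 120 to 207 CPM in the other 8. Il10rb, its second chain, was higher in FoxP3+CD25+ cells of both genotypes (0.69, FDR = 0.0142, in WT and 0.81, FDR = 0.0121, in KO). Ifngr1, the ligand-binding chain of the IFN-γ receptor, was highest where Ifng was lowest, at 708 and 598 CPM in KO FoxP3+CD25- libraries against 269 to 484 CPM elsewhere. Its log2 fold change was 1.08 against KO FoxP3-CD25- cells (FDR = 0.00494) and 0.48 against KO FoxP3+CD25+ cells (FDR = 0.0826). Il4ra was at 463 to 513 CPM in KO FoxP3+CD25- and 296 to 389 CPM in all other libraries.

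Of 20 transcription factors that direct cytokine genes, 19 were tested. In WT FoxP3+CD25+ cells, 10 were higher and 2 lower than in FoxP3-CD25- cells (median log2 fold change 0.65, all genes −0.02), and in KO 1 was higher and 2 lower (median 0.13, all genes −0.00). Calls over all genes also numbered fewer in KO, 874 (3.52% higher and 2.81% lower) against 1504 in WT (7.15% and 3.75%). In the fit without a mouse block, the difference between the genotypes was called for none of the 19. Compared with KO FoxP3+CD25+ cells, 7 were lower and none higher in KO FoxP3+CD25- cells (median −0.80), beside 4.76% lower and 2.25% higher of all genes (median 0.00). Tbx21 was at 14.3 and 8.87 CPM in WT and 14.4 and 26.6 CPM in KO FoxP3-CD25- libraries, 9.60 and 5.67 CPM in WT and 3.36 and 4.59 CPM in KO FoxP3+CD25+ libraries and 1.13 and 1.42 CPM in KO FoxP3+CD25- libraries. It fell by 3.98 on the log2 scale between KO FoxP3-CD25- and KO FoxP3+CD25- cells (FDR = 0.00277). Maf, Ahr, Nfil3 and Rora, factors linked to Il10 or to tissue Tregs, were lower in KO FoxP3+CD25- than in KO FoxP3+CD25+ cells by 1.54, 1.84, 2.32 and 1.57, with FDR of 0.0120, 0.0131, 0.0124 and 0.0109. Batf, an AP-1 family factor, was at 29.4 and 28.7 CPM in KO FoxP3+CD25- libraries and 38.7 to 54.2 CPM in the other 8.

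**Figure D4:**
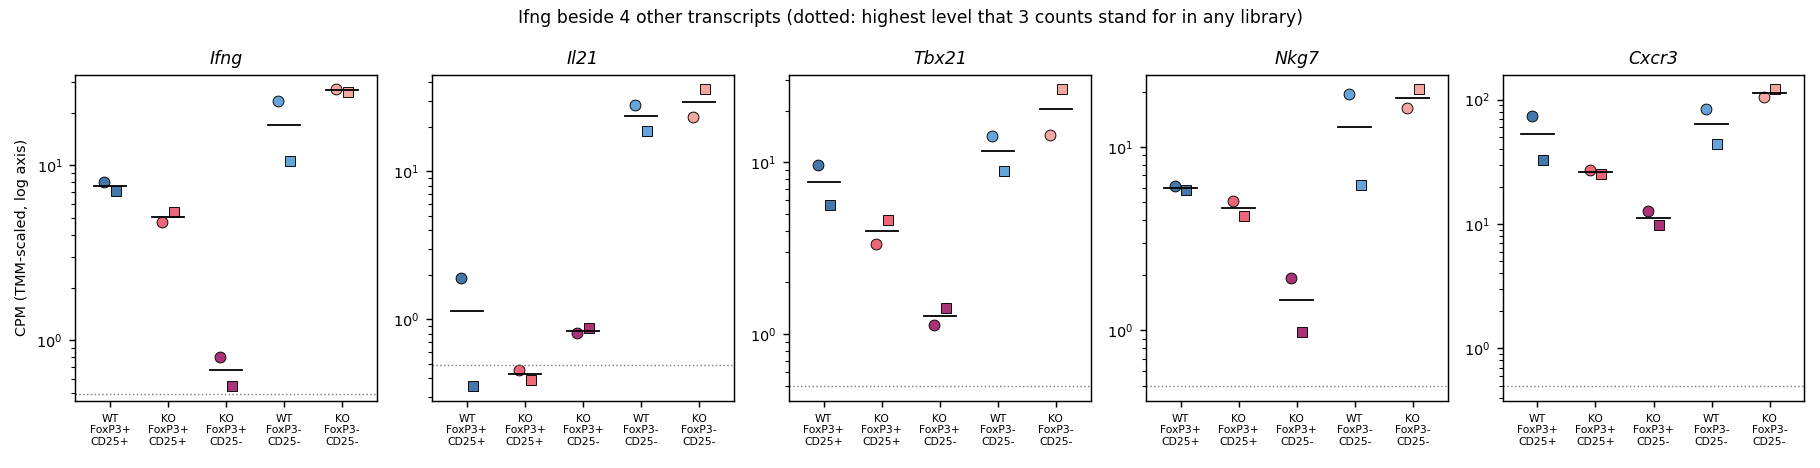
CPM (log axes) of Ifng, Il21, Tbx21, Nkg7 and Cxcr3 in each library; circles are mouse 1 and squares mouse 2 of a genotype, black lines are means of 2 libraries, and the dotted line is the highest level that 3 counts stood for (0.496 CPM). Ifng, Tbx21, Nkg7 and Cxcr3 were lowest in both KO FoxP3+CD25- libraries, whereas Il21 was about as low in FoxP3+CD25+ libraries. Nkg7, Tbx21 and Cxcr3 are the 3 genes of most similar pattern to Ifng over these libraries, so their likeness follows from that choice.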

How the data were processed

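RNA-seq of 10 libraries was analysed. The authors' alignment used HISAT2 and the mm10 build, and counting used HTSeq (versions 2.1.0 and 0.11.1 in the submitters' processing notes); the strand setting is not given in the sources used here. The deposited values are raw counts per gene symbol. HTSeq's tallies of unassigned reads were left out, and reads on genes were 26.0% to 28.5% of the sum. The tests of edgeR 4.0.16 under R 4.3.3 were run with filterByExpr with a minimum count of 10, TMM factors, 1 model of all 10 libraries with a mean per group, the quasi-likelihood F-test, and Benjamini-Hochberg adjustment over 13796 genes. SE is the fold change divided by the square root of F. Members, lists and rules were chosen with earlier results of these data known. Named were all members, at most 6 called genes per list by lowest p, and the 3 genes of most similar pattern per member.

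Differences between same-numbered libraries correlated within a genotype (r of 0.303 in WT, 0.421 to 0.445 in KO), so the mouse pairs libraries there; across genotypes r was −0.011 to 0.114. Alternatives were no filter, RLE factors, the likelihood ratio test, DESeq2 (version 1.42.0), compared libraries alone, replicate blocks and each library left out. Leaving out WT mouse 1 was added after seeing the data. Intervals and floors cover counting error only where they are made from counts. The steps were tested on simulated data. Positions came from GENCODE M21, and promoters from RefSeq (GRCm38.p6).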

Additional observations from a re-analysis of the deposited data

How the results depend on the processing

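No fold change of a member that was called in any fit changed sign in that comparison under any alternative. The number of called members changed by more than 1.5 times in these cases. In WT FoxP3+CD25+ against FoxP3-CD25- cells it was 5, and 3 without both libraries of WT mouse 1, with 3 to 4 when single libraries were left out. In KO FoxP3+CD25+ against FoxP3-CD25- cells it was 4, and 2 to 4 when single libraries were left out. In KO FoxP3+CD25- against KO FoxP3-CD25- cells it was 1, and 2 without the filter, with DESeq2, with the compared libraries alone and without WT mouse 1 (Ifng and Tnf in each), 3 with the likelihood ratio test (Il4 in addition, which passed the filter only through the KO FoxP3-CD25- libraries), and 2 with the mouse as a replicate block. Against WT FoxP3-CD25- cells it was 1, and 0 to 1 when single libraries were left out, and against KO FoxP3+CD25+ cells 6, and 2 to 3. The causes were not tested, but a fit with 1 library fewer has fewer degrees of freedom, and a lone library was assumed to vary like the other groups. The block on the replicate number alone changed no member's call, and the mouse block changed no call other than the 3 given above (Tnf in WT and in KO FoxP3+CD25- against KO FoxP3-CD25- cells, and Il10 in KO). In contrasts of a KO with a WT group, the mouse block takes the spread between mice out of the error. Its counts for those contrasts, given next, therefore do not test genotype across mice. The interaction is not one of them, because it compares differences taken within mice. The mouse block raised the count of called genes among all genes from 1504 to 2634, 874 to 1650, 1 to 57, 20 to 393, 106 to 537, 1548 to 2874, 230 to 787, 968 to 2090 and 0 to 149, in the order WT then KO FoxP3+CD25+ against FoxP3-CD25-, KO against WT FoxP3+CD25+ and FoxP3-CD25-, KO FoxP3+CD25- against WT FoxP3-CD25-, WT FoxP3+CD25+, KO FoxP3-CD25- and KO FoxP3+CD25+, and the interaction. Under the other alternatives that kept every library or left out WT mouse 1, the counts between genotypes moved most: from 1 to between 0 and 11 for FoxP3+CD25+ cells, from 20 to between 11 and 143 for FoxP3-CD25- cells, from 106 to between 35 and 306 for KO FoxP3+CD25- against WT FoxP3-CD25- cells, and from 0 to as many as 32 for the interaction, the highest in each case with the likelihood ratio test. Without single libraries, and in the same order, the counts ran from 810 to 2102, 402 to 442, 1 to 2, 0 to 4, 19 to 58, 797 to 1880, 30 to 161, 411 to 570 and 0 to 112. Without WT mouse 1 the first count was 707. Against KO FoxP3-CD25- cells, the likelihood ratio test called 514, and against WT FoxP3+CD25+ cells the compared libraries alone gave 913. Among single fold changes, 10 gained and 4 lost a call under those alternatives and the blocks, and 1 gained and 30 lost a call when single libraries were left out. Low counts limit Il4, Areg outside FoxP3+CD25+ cells, Il13, Il17a and Csf2.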

Other observations

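Of the 30 other cytokines and ligands, 13 did not pass the filter, and Il3, Il9, Il12a and Il24 had no count in any library. None of the 13 exceeded 26 counts in a library, a value of Ccl4. Il22 had 5 counts in total and Il17f had 21.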
